A study of Homo sapiens with 5 samples.

Results

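The 10 genes described here act in G1 control and its checkpoint and were chosen by symbol because they are reported targets of miR-15/16, let-7 or miR-34. They are the D-type cyclins CCND1, CCND2 and CCND3, their kinases CDK4 and CDK6, the E-type cyclins CCNE1 and CCNE2, the phosphatase CDC25A, and the kinases WEE1 and CHEK1. All 10 were found among the 18257 genes of the table, and all 10 were among the 12234 genes that passed a filter on low counts. The rule itself uses no measured value, but the genes were chosen with earlier results of these data known.

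Poly(A) RNA was sequenced from HEK293, an established line of embryonic kidney origin, in the form HEK293 T-Rex FLAG:DICER1 FLP-IN, so that all libraries, the mock included, share the tagged DICER1 insertion. The libraries are labelled 18 h, and the cells were transfected with siRNAs against DICER1 (2 libraries, siRNA 1 and siRNA 2), with siRNAs against DROSHA (2 libraries, siRNA 1 and siRNA 2), or by mock transfection (1 library). The siRNAs of a pair are independent reagents against the same gene, and separate cultures are nowhere stated. P-values therefore measure only the spread between these libraries. DROSHA knockdown and the mock were the controls of a study of how DICER binding affects gene regulation, per its design text.

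Passage from G1 into S phase is driven by D-type cyclins, which activate CDK4 and CDK6 to phosphorylate the retinoblastoma protein and so release E2F transcription factors. E-type cyclins then activate CDK2. CDC25A removes the inhibitory phosphates from CDKs that WEE1 adds, and CHEK1, activated by stalled replication, directs CDC25A to destruction. MicroRNAs are cut by DROSHA in the nucleus and by DICER1 in the cytoplasm, and pair through a seed near their 5′ end with sites in mRNA 3′ UTRs, which lowers the level or translation of those mRNAs. In HEK293 cells the adenoviral E1A protein, which binds retinoblastoma family proteins, is present as well, so the line is a limited model of G1 control.

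The microRNA sequences and sites below show which pairing each gene offers. The mature guides were taken from RefSeq (GRCh38.p14), with the seed, bases 2 to 8, in capitals. Mature let-7a and let-7b share one seed, as do miR-15a and miR-16, while miR-34a has its own. The miR-17/20 family, for which miR-17 stands, was searched as well.
let-7a-5p: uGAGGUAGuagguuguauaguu
let-7b-5p: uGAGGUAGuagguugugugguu
miR-15a-5p: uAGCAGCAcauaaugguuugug
miR-16-5p: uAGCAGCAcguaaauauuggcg
miR-34a-5p: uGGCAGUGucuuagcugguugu
miR-17-5p: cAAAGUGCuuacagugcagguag

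Sites were searched on the sense strand of 1 annotated 3′ UTR per gene in GENCODE 29 (GRCh38), the longest among its consensus coding transcripts. A match was the 7-letter complement of the seed, its last 6 letters followed by A, or the full 8 letters with A. For let-7 the 8-letter form is CTACCTCA. For miR-15/16 it is TGCTGCTA. For miR-34 it is CACTGCCA, and for miR-17/20 it is GCACTTTA. The 7-letter forms are the first and the last 7 letters of each. Each match was counted once, as the longest form. The 10 genes held 41 such matches, of which 17 were to miR-15/16, 10 to let-7, 7 to miR-34 and 7 to miR-17/20. A miR-15/16 match of any form was present in 9 of the 10 genes, beside 28.4% of the 11519 tested genes scanned, and an 8-letter one in 6 of the 10, beside 4.85%. The choice of reported targets fixes much of this, and the median 3′ UTR was also longer in the 10 genes, at 1813 nt against 1342 nt in all genes scanned. Let-7 matches were present in 5 of the 10 genes, beside 18% of all, and miR-34 matches in 5, beside 23.8%. For CDK4 none of the letters searched was found in its 798 nt 3′ UTR.

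The 8-letter miR-15/16 matches are shown as the longest form, with the match in capitals at the 3′ end of a 22 nt window of the mRNA. CCNE1, whose 3′ UTR is the shortest of the 10 at 531 nt, holds a pair of them. Matches of 7 letters that also pair with the whole miR-15/16 seed are present in CCND3, CDK6, CDC25A and WEE1 and are not printed.
CCND1, chr11:69653301-69653322, plus strand: tctttcacattgttTGCTGCTA
CCND2, chr12:4301759-4301780, plus strand: tgtttcacagagtgTGCTGCTA
CCNE1 first, chr19:29824010-29824031, plus strand: gtgcgtgctcccgaTGCTGCTA
CCNE1 second, chr19:29824248-29824269, plus strand: aactgttttgtaagTGCTGCTA
CDC25A, chr3:48158264-48158285, minus strand: tgtggtactggggcTGCTGCTA
WEE1, chr11:9589132-9589153, plus strand: ttgccttgtgaattTGCTGCTA
CHEK1, chr11:125655344-125655365, plus strand: cctggtgaatatagTGCTGCTA

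The let-7 matches of CDC25A and CHEK1 and the miR-34 matches of CDK6 that pair with the whole seed are shown in the same way, since they pair with bases 2 to 8. CCNE2 holds an 8-letter miR-34 match that is not printed.
CDC25A let-7 first, chr3:48158803-48158824, minus strand: ttccatgccttaaacCTACCTC
CDC25A let-7 second, chr3:48158387-48158408, minus strand: ttattatcccagggaCTACCTC
CHEK1 let-7, chr11:125656329-125656350, plus strand: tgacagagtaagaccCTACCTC
CDK6 miR-34 first, chr7:92614046-92614067, minus strand: gtactttctgccacaCACTGCC
CDK6 miR-34 second, chr7:92605953-92605974, minus strand: agcagtgtggaaattCACTGCC

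**Figure D1:**
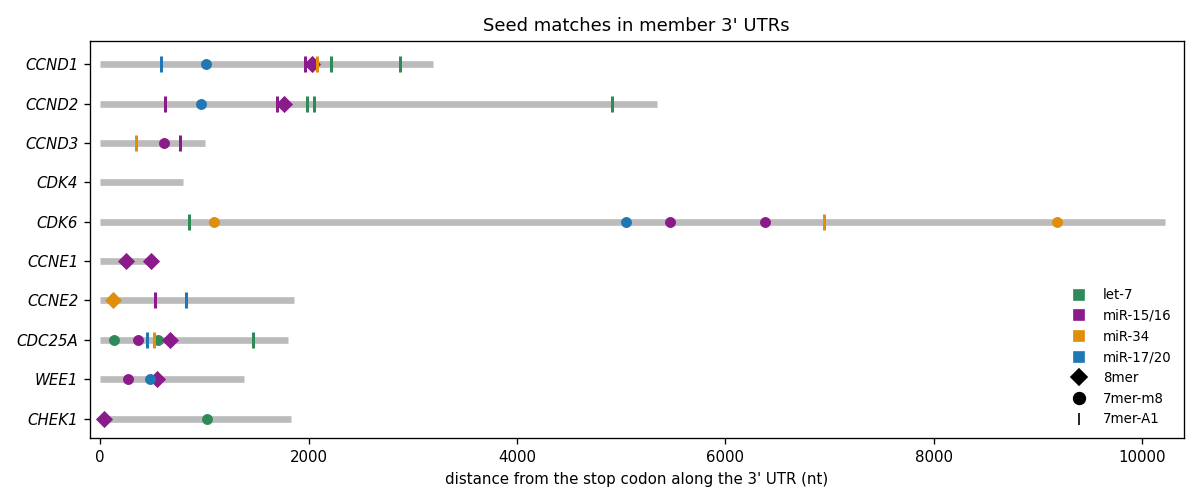
Seed matches along the 3′ UTRs of the 10 genes, with distance from the stop codon in nt on the x axis, a grey bar for each 3′ UTR, colours for the 4 microRNA families and symbols for the 3 forms of match. CDK6 has the longest 3′ UTR at 10219 nt, CCNE1 holds a pair of 8-letter miR-15/16 matches in 531 nt, and CDK4 holds none of the matches.

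Library totals lay between 7620206 and 8736455 counts, and the 10 genes together held 0.116% and 0.121% of the counts in the DICER1 siRNA libraries, 0.121% and 0.123% in the DROSHA siRNA libraries and 0.109% in the mock. Levels below are CPM, each gene's share of the library's counts on the usual CPM scale after TMM scaling of the totals. The targeted mRNAs were low where the labels say so. DICER1 averaged 70.9 ± 4.49 CPM (SD, n = 2) under DICER1 siRNA, 307 ± 35.7 CPM (SD, n = 2) under DROSHA siRNA, and was at 243 CPM in the mock. DROSHA averaged 194 ± 1.15 CPM (SD, n = 2) under DICER1 siRNA, 41.6 ± 0.514 CPM (SD, n = 2) under DROSHA siRNA, and was at 191 CPM in the mock. Of the genes chosen to mark HEK293 cells, all 7 were detected in every library. Their summed level was 908 to 927 CPM under DICER1 siRNA, 774 to 839 CPM under DROSHA siRNA and 826 CPM in the mock. VIM alone made up 419 to 462 CPM of this. The kidney lineage factor PAX2 was low, at 2.04 to 4.4 CPM, as was NEFM, at 0.963 to 1.95 CPM. Of 14 markers of other cell types in the table, 5 passed the low-count filter. These 14 summed to 54.7 to 55.4 CPM under DICER1 siRNA, 45.8 to 49.5 CPM under DROSHA siRNA and 51.3 CPM in the mock, with the leukocyte gene PTPRC at 0 counts in every library and HBB at 21.5 to 26.6 CPM. The part of these markers in the results below was not tested.

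Per length of the transcript used for the 3′ UTR, CDK4 was the most abundant of the 10, at 107 to 121 CPM per kb over the 5 libraries. Its range did not overlap that of any other. CDC25A (48.9 to 58.8 CPM per kb), CCNE1 (40.7 to 65.7) and CCND3 (43.5 to 50.9) followed with overlapping ranges. Next came WEE1 (27.1 to 38.3 CPM per kb) and CCND1 (26.2 to 36.0), which overlapped each other. CHEK1 stood apart from its neighbours at 18.0 to 20.4 CPM per kb. CCND2 (10.7 to 14.6 CPM per kb), CDK6 (9.56 to 11.7) and CCNE2 (9.32 to 13.2) were lowest on this scale and overlapped. The order depends on the transcript length used, and which transcripts were expressed was not tested. Without division by length, for example, CDK6 (111 to 135 CPM) lay above CHEK1 (63.3 to 71.7 CPM). All of the 10 mRNAs were thus expressed in every library, and the highest library was at most 1.61 times the lowest for any of them.

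None of the 10 genes passed edgeR's quasi-likelihood test at an adjusted p of 0.05 in any of the 3 comparisons, where 0.00817% of all tested genes passed in DICER1 siRNA against mock (DICER1 alone), 0.00817% in DROSHA siRNA against mock (DROSHA alone) and 0.0163% in DICER1 siRNA against DROSHA siRNA (both targets). DESeq2 called none of them either. At an unadjusted p under 0.05, none of the 10 was reached in DICER1 siRNA against mock, beside 5.46% of all tested genes, none in DROSHA siRNA against mock, beside 3.69%, and 2 in DICER1 siRNA against DROSHA siRNA, CCND2 and CCNE2, beside 8.34%. These unadjusted counts moved when 1 siRNA library was left out, for the 10 genes and over all tested genes alike. Each such fit leaves 1 library in a siRNA group, so its counts are not given. The median log2 fold change of the 10 was 0.10 in DICER1 siRNA against mock, beside 0.0005 for all tested genes. It was 0.15 in DROSHA siRNA against mock, beside -0.0049, and -0.02 in DICER1 siRNA against DROSHA siRNA, beside 0.0042. The first 2 comparisons share the single mock library, which is assumed in the fit to vary like the siRNA pairs, so an unusual mock and an effect of both knockdowns cannot be told apart there. In whole cultures, fewer cells in a cell cycle phase and less RNA per cell also cannot be told apart.

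**Figure D2:**
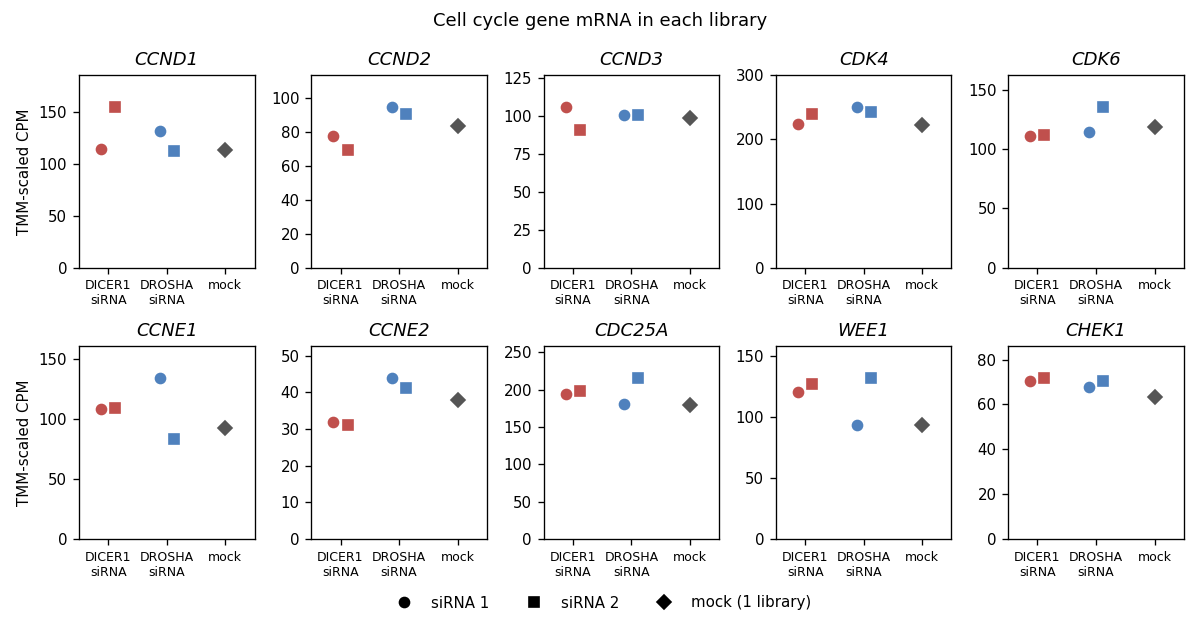
TMM-scaled CPM of each of the 10 genes (y axes, from 0) in the DICER1 siRNA, DROSHA siRNA and mock libraries (x axis), with 1 point per library and no error bars. CCND2, CDK6 and CCNE2 lie lower in both DICER1 siRNA libraries than in any other library, and CCNE1 and WEE1 differ widely between the DROSHA siRNAs.

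Among the D-type cyclins, CCND2 was the one with the DICER1 pair apart from every other library. CCND2 (chr12:4273772-4305350 in GRCh38, plus strand) stood at 77.2 and 69.1 CPM under DICER1 siRNA 1 and 2, 94.5 and 90.6 CPM under DROSHA siRNA 1 and 2, and 83.5 CPM in the mock. Both DICER1 siRNA libraries were lower than the mock and both DROSHA siRNA libraries higher, with no overlap between the pairs. The log2 difference between DICER1 siRNA and DROSHA siRNA was -0.34 ± 0.09 (SE, 95% interval -0.561 to -0.12, unadjusted p = 0.00843, adjusted p = 0.484 in edgeR's quasi-likelihood test). With each siRNA library left out in turn it lay between -0.42 and -0.26, and without DICER1 siRNA 2 it was -0.26 with an unadjusted p of 0.0856 (edgeR adjusted p = 0.998). Against the mock its log2 fold change was -0.19 ± 0.11 under DICER1 siRNA and 0.15 ± 0.11 under DROSHA siRNA (SE), and neither passed the edgeR test (adjusted p = 0.87 and 0.978). Without DICER1 siRNA 2 the first of these was -0.11.

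CCND1 (chr11:69641087-69654474, plus strand), a D-type cyclin with the 8-letter miR-15/16 match printed above, stood at 115 and 155 CPM under DICER1 siRNA 1 and 2, 132 and 113 CPM under DROSHA siRNA 1 and 2, and 114 CPM in the mock. DICER1 siRNA 2 was the highest library, and the others lay between 113 and 132 CPM. Its log2 fold change in DICER1 siRNA against mock was 0.25 ± 0.19 (SE, 95% interval -0.197 to 0.698, edgeR adjusted p = 0.906), and without DICER1 siRNA 2 it was 0.02. CCND3, the remaining D-type cyclin (chr6:41934933-42050357, minus strand), stood at 106 and 90.7 CPM under DICER1 siRNA, 101 and 101 CPM under DROSHA siRNA, and 98.9 CPM in the mock. The DICER1 siRNA libraries lay on either side of the mock, and its log2 fold change of -0.0081 ± 0.12 (SE) in DICER1 siRNA against mock bounds the difference between -0.296 and 0.279 at 95%. In DROSHA siRNA against mock the log2 fold change was 0.11 ± 0.19 for CCND1 and 0.03 ± 0.12 for CCND3 (SE, edgeR adjusted p = 0.983 and 0.996).

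The highest library was 1.13 times the lowest for CDK4 and 1.22 times for CDK6, the kinases that D-type cyclins activate. CDK4 (chr12:57747727-57756013, minus strand) stood at 224 and 239 CPM under DICER1 siRNA, 251 and 243 CPM under DROSHA siRNA, and 222 CPM in the mock. All 4 siRNA libraries were above the mock, by at most 1.13 times, with a log2 fold change of 0.06 ± 0.08 in DICER1 siRNA against mock and 0.15 ± 0.08 in DROSHA siRNA against mock (SE, edgeR adjusted p = 0.948 and 0.978). CDK6 (chr7:92604921-92836594, minus strand) stood at 111 and 112 CPM under DICER1 siRNA, 114 and 135 CPM under DROSHA siRNA, and 119 CPM in the mock. Both DICER1 siRNA libraries were lower than the mock, while the DROSHA siRNA libraries fell on either side of it. Its log2 fold change was -0.09 ± 0.12 in DICER1 siRNA against mock and 0.07 ± 0.12 in DROSHA siRNA against mock (SE, edgeR adjusted p = 0.945 and 0.983). In GENCODE 29 CDK4 shares 1369 exonic bases with TSPAN31, a gene on the opposite strand. The sources used here do not state whether reads were counted by strand, so reads of such partners may not be separable. TSPAN31 stood at 41.5 and 37.2 CPM under DICER1 siRNA, 60.3 and 47.0 CPM under DROSHA siRNA, and 48.2 CPM in the mock. For TSPAN31 as for CDK4, both DICER1 siRNA libraries were below both DROSHA siRNA libraries, and the part of shared reads in this was not tested.

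The E-type cyclins, which activate CDK2, ordered the libraries differently. CCNE2, the one of the 10 with the smallest p, stood at 31.8 and 31.0 CPM under DICER1 siRNA 1 and 2, 43.9 and 41.1 CPM under DROSHA siRNA 1 and 2, and 37.8 CPM in the mock. As for CCND2, both DICER1 siRNA libraries were lower and both DROSHA siRNA libraries higher than the mock, with no overlap. The log2 difference between DICER1 siRNA and DROSHA siRNA was -0.43 ± 0.10 (SE, 95% interval -0.675 to -0.195, unadjusted p = 0.00387), a 0.740-fold level, and it did not pass over all genes (edgeR adjusted p = 0.443). With each siRNA library left out in turn it stayed between -0.48 and -0.39. Against the mock the log2 fold change was -0.27 ± 0.12 under DICER1 siRNA and 0.17 ± 0.12 under DROSHA siRNA (SE, edgeR adjusted p = 0.87 and 0.978). The CCNE2 gene shares 1629 exonic bases with INTS8, an Integrator subunit gene on the opposite strand. INTS8 stood at 63.7 and 62.7 CPM under DICER1 siRNA, 66.1 and 68.5 CPM under DROSHA siRNA, and 71.0 CPM in the mock, a log2 difference of -0.09 between DICER1 siRNA and DROSHA siRNA (edgeR adjusted p = 0.793).

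Of 10614 tested candidates averaging 5 CPM or more, the 3 whose log2 CPM deviations over the 5 libraries lay nearest to those of CCNE2 were C2orf76, IRAK1BP1 and PIGH, at Euclidean distances of 0.0661, 0.0722 and 0.0755. PIGH, for example, stood at 23.2 and 23.2 CPM under DICER1 siRNA, 30.8 and 28.9 CPM under DROSHA siRNA, and 27.2 CPM in the mock.

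CCNE1 (chr19:29811898-29824308, plus strand) stood at 109 and 110 CPM under DICER1 siRNA 1 and 2, 134 and 83.1 CPM under DROSHA siRNA 1 and 2, and 92.5 CPM in the mock. Both DICER1 siRNA libraries were close to each other, at 117% and 119% of the mock, whereas the DROSHA siRNAs fell on either side of it, the first the highest and the second the lowest of all libraries. That gap of -0.69 (log2, siRNA 2 minus siRNA 1) was the widest within a pair among the 10 genes, where the median over all tested genes was 0.141 in size in the DROSHA pair. The log2 fold change of CCNE1 in DROSHA siRNA against mock was 0.23 ± 0.25 (SE, edgeR adjusted p = 0.981), and it was 0.54 without DROSHA siRNA 2 and -0.16 without DROSHA siRNA 1. In DICER1 siRNA against mock it was 0.24 ± 0.25 (SE, 95% interval -0.362 to 0.84, adjusted p = 0.936 in edgeR), where the fit takes its spread from both pairs.

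WEE1, the kinase that adds inhibitory phosphates to CDK1 and CDK2, had the highest fold change of the 10 against the mock. The gene (chr11:9573681-9593457, plus strand) stood at 120 and 127 CPM under DICER1 siRNA 1 and 2, 93.0 and 132 CPM under DROSHA siRNA 1 and 2, and 93.0 CPM in the mock. Both DICER1 siRNA libraries and DROSHA siRNA 2 lay well above the mock, and DROSHA siRNA 1 equalled it. The log2 fold change was 0.41 ± 0.20 in DICER1 siRNA against mock (SE, 95% interval -0.061 to 0.877, unadjusted p = 0.0783, edgeR adjusted p = 0.87). With DROSHA siRNA 1 left out the same log2 fold change was 0.41, and without DROSHA siRNA 2 it was 0.41. In DROSHA siRNA against mock it was 0.27 ± 0.20 (SE, edgeR adjusted p = 0.978), but 0.50 without DROSHA siRNA 1 and 0.0026 without DROSHA siRNA 2. The last 2 values each set 1 DROSHA siRNA library against the 1 mock library. The difference between DICER1 siRNA and DROSHA siRNA for WEE1 was 0.14 ± 0.16 on the log2 scale (SE), within the spread of the pairs.

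CDC25A (chr3:48157146-48188402, minus strand), the phosphatase that opposes WEE1, stood at 194 and 199 CPM under DICER1 siRNA, 181 and 215 CPM under DROSHA siRNA, and 179 CPM in the mock. All 4 siRNA libraries were above the mock. DROSHA siRNA 1 was at 101% of the mock, and DROSHA siRNA 2 was the highest library. Its log2 fold change was 0.13 ± 0.12 in DICER1 siRNA against mock and 0.14 ± 0.12 in DROSHA siRNA against mock (SE, edgeR adjusted p = 0.921 and 0.978). CHEK1 (chr11:125625136-125676255, plus strand), the checkpoint kinase that acts on CDC25A, stood at 70.3 and 71.7 CPM under DICER1 siRNA, 67.9 and 70.2 CPM under DROSHA siRNA, and 63.3 CPM in the mock. The 4 siRNA libraries were close together and all above the mock, at log2 fold changes of 0.17 ± 0.10 for DICER1 siRNA and 0.13 ± 0.10 for DROSHA siRNA (SE, edgeR adjusted p = 0.877 and 0.978). The CHEK1 annotation shares 80 exonic bases with STT3A, its neighbour on the same strand.

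**Figure D3:**
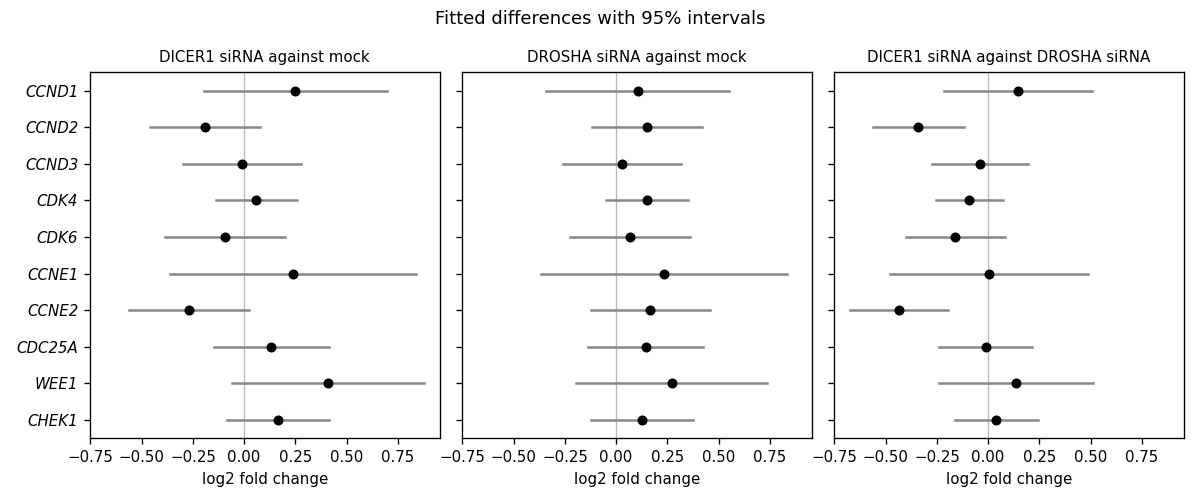
Log2 fold change (x axis) of the 10 genes in the 3 comparisons, with points for edgeR's fitted values and bars for 95% intervals. Every interval crosses 0 in both comparisons with the mock, and in DICER1 siRNA against DROSHA siRNA those of CCND2 and CCNE2 do not.

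Counted by side, 9 of the 10 genes had both DICER1 siRNA libraries on one side of the mock, beside 73.1% of all tested genes, and 6 had both DROSHA siRNA libraries on one side, beside 63.9%. In DICER1 siRNA, 6 of the 10 genes had both libraries above the mock, beside 36.7% of all tested genes, and 3 had both below it, beside 36.4%. In DROSHA siRNA, 6 had both libraries above the mock, beside 31.5%, and none had both below, beside 32.5%. Genes with all 4 siRNA libraries above the mock numbered 3 (CDK4, CDC25A and CHEK1), beside 19.4% of all tested genes, and none had all 4 below, beside 19.1%. CCND2 and CCNE2 were the 2 with the pairs on opposite sides of the mock, beside 9.51%. Compared directly, 4 had both DICER1 siRNA libraries below both DROSHA siRNA libraries (CCND2, CDK4, CDK6 and CCNE2), beside 20%, and CHEK1 was the single one with both above, beside 20.9%. With 10 genes these counts carry no test.

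The 10 genes were also set apart by the 8-letter miR-15/16 match, a split looked at after the values were seen and given with no test. The ranges with and without the match overlapped in all 3 comparisons. In DICER1 siRNA against mock, the log2 fold changes of the 6 genes with such a match ran from -0.19 for CCND2 to 0.41 for WEE1. Their median was 0.20, beside 0.0005 for all tested genes. The 4 genes without it ran from -0.27 for CCNE2 to 0.06 for CDK4, with a median of -0.05. In DROSHA siRNA against mock the 6 genes with the match ran from 0.11 to 0.27 and the 4 without it from 0.03 to 0.17. Their medians were 0.15 and 0.11, beside -0.0049 for all tested genes. Over all scanned genes, the 559 with an 8-letter miR-15/16 match had a median log2 fold change of -0.0039 in DICER1 siRNA against mock and those without it 0.0008. For a miR-15/16 match of any form the order was reversed, with a median of 0.0081 with it and -0.0025 without. Genes with any let-7 match had a median of -0.0058 there, beside 0.0023 without, and genes with any miR-34 match 0.0130, beside -0.0030. For any miR-17/20 match it was 0.0005, beside 0.0008. In DROSHA siRNA against mock, medians with and without an 8-letter match were -0.0004 and -0.0059 for miR-15/16, and 0.0253 and -0.0071 for miR-17/20. They were -0.0074 and -0.0058 for let-7, and -0.0072 and -0.0057 for miR-34. With and without a match of any form they were -0.0025 and -0.0065 for miR-15/16, and 0.0016 and -0.0082 for miR-17/20. For let-7 they were -0.0116 and -0.0044, and for miR-34 -0.0093 and -0.0044.

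Other genes of the same circuit were followed in 6 lists drawn from knowledge of the pathway, with earlier results of these data known. All of their 71 genes were tested. No gene of these lists was called by edgeR's quasi-likelihood test in any of the 3 comparisons. For each list, the counts of genes with both libraries above or below the mock stand against 36.7% above and 36.4% below among all tested genes in DICER1 siRNA, and 31.5% above and 32.5% below in DROSHA siRNA.

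The CDK inhibitors, which block cyclin-CDK complexes, had a median log2 fold change of 0.03 in DICER1 siRNA against mock over 7 genes. These 7 genes ran from -0.47 to 0.38 in DICER1 siRNA against mock and from -0.52 to 0.30 in DROSHA siRNA against mock. Both libraries were above the mock for 5 of them, beside 36.7% of all tested genes, and below it for 1, beside 36.4%. In DROSHA siRNA against mock the median was 0.06, with 4 above, beside 31.5%, and 1 below, beside 32.5%. CDKN2B, an inhibitor of CDK4 and CDK6, had the smallest p of the list, at 37.4 and 42.0 CPM under DICER1 siRNA, 38.5 and 40.2 CPM under DROSHA siRNA, and 31.9 CPM in the mock. All 4 siRNA libraries were above the mock, at log2 fold changes of 0.32 ± 0.13 and 0.30 ± 0.13 (SE, edgeR adjusted p = 0.865 and 0.978). CDKN1B, which binds cyclin E-CDK2, had 0.16 ± 0.11 and 0.20 ± 0.11 (SE).

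The retinoblastoma and E2F list held 13 genes, with a median of 0.08 in DICER1 siRNA against mock and 9 genes above and 3 below the mock in both libraries, and a median of 0.04 in DROSHA siRNA against mock with 6 above and 2 below. RBL2, a retinoblastoma relative that represses E2F targets in resting cells, stood at 149 and 149 CPM under DICER1 siRNA, 146 and 145 CPM under DROSHA siRNA, and 120 CPM in the mock. The siRNA libraries were within a few CPM of each other and all above the mock, with log2 fold changes of 0.31 ± 0.09 and 0.27 ± 0.09 (SE, unadjusted p = 0.01 and 0.0177, edgeR adjusted p = 0.865 and 0.978). E2F1, the activator that retinoblastoma protein holds back, stood at 167 and 166 CPM under DICER1 siRNA, 157 and 129 CPM under DROSHA siRNA, and 134 CPM in the mock. TFDP1, the partner with which E2Fs bind DNA, was at -0.25 ± 0.11 in DICER1 siRNA against mock and -0.13 ± 0.11 in DROSHA siRNA against mock (SE, edgeR adjusted p = 0.865 and 0.978).

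The cyclins and CDKs of S phase and mitosis, with CDC25B, CDC25C and PKMYT1, had the lowest median of the lists in DICER1 siRNA against mock, -0.14 over 8 genes. Both libraries were below the mock for 6 of these genes, beside 36.4% of all tested genes, and above it for 2, beside 36.7%. The DROSHA siRNA median was -0.04, with 3 genes below, beside 32.5%, and none above, beside 31.5%. CCNA2, the cyclin of S phase, stood at 174 and 157 CPM under DICER1 siRNA, 188 and 214 CPM under DROSHA siRNA, and 194 CPM in the mock. The DICER1 siRNA libraries were the lowest of the 5, with a log2 difference from DROSHA siRNA of -0.28 ± 0.09 (SE, unadjusted p = 0.0206, edgeR adjusted p = 0.528). CCNB1, the mitotic cyclin, was at -0.22 ± 0.11 in DICER1 siRNA against mock and -0.12 ± 0.11 in DROSHA siRNA against mock (SE), CDC25C, the phosphatase that activates CDK1, at -0.20 ± 0.12 and -0.16 ± 0.12, and CCNB2, another mitotic cyclin, at -0.13 ± 0.09 and -0.10 ± 0.09.

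The 15 checkpoint signalling genes around CHEK1 had medians of -0.0084 in DICER1 siRNA against mock, with 6 genes above and 6 below, and -0.0064 in DROSHA siRNA against mock, with 5 above and 3 below. RAD9A, part of the clamp that loads at damaged DNA, was at 0.40 ± 0.15 and 0.18 ± 0.15 (SE), RPA2, which coats single-stranded DNA, at 0.23 ± 0.10 and 0.18 ± 0.10, and ATR, the kinase that activates CHEK1, at -0.22 ± 0.12 and -0.20 ± 0.12. The 13 genes of cyclin turnover and CDK activation had medians of 0.04 with 6 above and 4 below, and -0.04 with 4 above and 4 below, in the same order of comparisons. FBXO31, an F-box protein reported to direct cyclin D1 to destruction, stood at 35.5 and 34.9 CPM under DICER1 siRNA, 34.7 and 34.6 CPM under DROSHA siRNA, and 27.9 CPM in the mock. All its siRNA libraries were above the mock and close together, at 0.33 ± 0.12 and 0.31 ± 0.12 (SE, log2 fold change, edgeR adjusted p = 0.865 and 0.978). RBX1, the RING subunit of cullin ligases, was at -0.20 ± 0.12 in both comparisons, and CDK7, the CDK-activating kinase, at 0.19 ± 0.13 and 0.23 ± 0.13 (SE).

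The 15 replication genes that E2F drives had a median of 0.03 in DICER1 siRNA against mock, with 7 above and 4 below, beside 36.7% and 36.4% of all tested genes. The median in DROSHA siRNA against mock was -0.06, with 4 above and 9 below, beside 31.5% and 32.5%. Between DICER1 siRNA and DROSHA siRNA their median log2 difference was 0.09, with 10 genes higher in both DICER1 siRNA libraries and none lower, beside 20.9% and 20% of all tested genes. TYMS, which makes thymidylate for DNA, stood at 249 and 272 CPM under DICER1 siRNA, 224 and 216 CPM under DROSHA siRNA, and 240 CPM in the mock, a log2 difference of 0.25 ± 0.07 between DICER1 siRNA and DROSHA siRNA (SE, unadjusted p = 0.0116, edgeR adjusted p = 0.499). Against the mock, CDT1, which licenses origins, was at 0.19 ± 0.10 under DICER1 siRNA and 0.08 ± 0.10 under DROSHA siRNA (SE). The helicase subunits MCM3 and MCM2 were at 0.10 ± 0.06 and -0.04 ± 0.10 under DICER1 siRNA, and at 0.01 ± 0.06 and -0.16 ± 0.10 under DROSHA siRNA (SE).

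**Figure D4:**
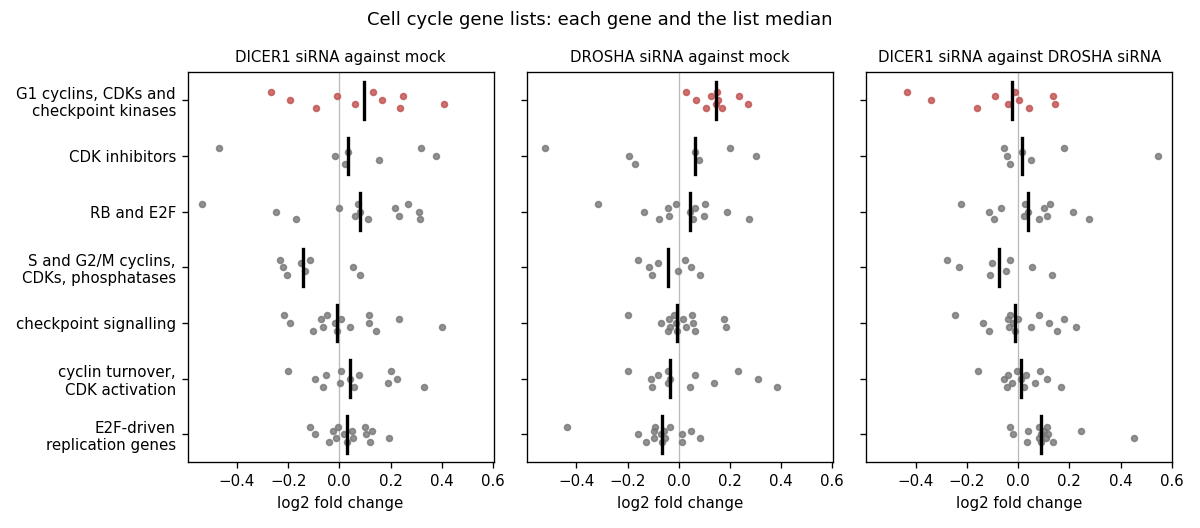
Log2 fold change (x axis) of each gene in the 10-gene set (red) and in 6 lists of the same circuit (grey) in the 3 comparisons, with black bars for list medians. The medians of the 10 genes are 0.10, 0.15 and -0.02, and the lowest list median is -0.14, that of the S phase and mitotic cyclins in DICER1 siRNA against mock.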

How the data were processed

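The submitters' processing notes name CASAVA (1.8.2), STAR, HTSeq, edgeR and human build hg19, with no role or order. The authors deposited raw read counts per gene symbol, whole numbers with no normalization, for 18257 genes, of which 2602 had no read. Each column name pointed to 1 sample, and 0 columns were unused. A gene was kept when 2 or more of the 5 libraries reached 1 CPM. Scaling (TMM) and testing (quasi-likelihood F test) used edgeR 4.0.16 under R 4.3.3. One fit held all 5 libraries, with group alone as term and 2 residual degrees of freedom. Benjamini-Hochberg adjustment ran over 12234 genes, and an adjusted p under 0.05 was called. Standard errors are the log2 fold change over the square root of F. The common biological coefficient of variation was 8.51%. Replicate libraries differed beyond counting noise (chi-square per degree of freedom 2.61 for the DICER1 pair and 7.54 for the DROSHA pair). DESeq2 1.42.0, other scalings, no low-count filter, libraries left out and a block on siRNA number were the alternatives. The steps were tested on simulated data.

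The genes and lists were chosen with earlier results of these data known. Named genes are the 10 members, the targets DICER1 and DROSHA, any list gene called, the 2 genes of each list with the smallest p in each comparison with the mock, and the 3 genes with profiles nearest to the member with the smallest p. TYMS and CCNA2 were named under this rule. TSPAN31, INTS8, STT3A and AC008012.1 were named for their overlap with members, after values were seen, as were the splits by 8-letter match. Other overlapping genes, not found by symbol among the counted genes, share exonic bases with CCND1, CCND2, CCND3, CDK6, CCNE2 and WEE1. The 3′ UTR was that of the protein-coding transcript with a consensus coding sequence and the longest 3′ UTR in GENCODE 29 (GRCh38), matched by symbol for 11519 tested genes with at least 50 nt. The files use hg19, and no coordinates from them are given.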

Additional observations from a re-analysis of the deposited data

Results flagged for a closer look

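For CCND2 and CCNE2, both DICER1 siRNA libraries lay below the mock and both DROSHA siRNA libraries above it, and this opposite order is why they are listed here. The log2 difference, DICER1 siRNA minus DROSHA siRNA, was -0.34 for CCND2 and -0.43 for CCNE2. Tested directly with edgeR's quasi-likelihood test it had an adjusted p of 0.484 for CCND2 and 0.443 for CCNE2, so neither passed over all genes. Among all tested genes 9.51% had the pairs on opposite sides of the mock.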

How the results depend on the processing

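None of the 10 genes passed the test in any of the 3 comparisons under any of the 9 alternatives. The mock is 1 library and could not be left out. Counts over all genes moved. In DICER1 siRNA against DROSHA siRNA 2 genes were called, 24 with DESeq2, 12 with no low-count filter, and 1 to 427 with libraries left out. In DICER1 siRNA against mock 1 was called, 5 with DESeq2, 3 with no filter, and 0 to 5 with libraries left out. In DROSHA siRNA against mock 1 was called, and 1 to 225 with libraries left out, the 225 without DROSHA siRNA 1, which also gave the 427. The cause was not tested. With siRNA number as a replicate block, 1, 1 and 2 genes and 0 members were called in DICER1 siRNA against mock, DROSHA siRNA against mock and DICER1 siRNA against DROSHA siRNA. Under this block WEE1 in DICER1 siRNA against mock had an unadjusted p of 0.0303 (edgeR adjusted p = 0.866), beside 0.0783 without it. The numbers name different siRNAs, and same-numbered libraries did not deviate together (r = 0.0243 over 12234 genes). With 2 libraries per enzyme this is a single correlation, which cannot decide whether the samples were paired. Library totals alone turned CCND3 in DICER1 siRNA against mock to 0.0111, beside -0.0081. With libraries left out, log2 fold changes ranged from -0.13 to 0.10 for CCND3 in DICER1 siRNA against mock. In DROSHA siRNA against mock they ranged from -0.0128 to 0.21 for CCND1, -0.16 to 0.54 for CCNE1 and -0.0582 to 0.18 for CDK6. In DICER1 siRNA against DROSHA siRNA they ranged from -0.0892 to 0.34 for CCND1, -0.16 to 0.0714 for CCND3, -0.30 to 0.39 for CCNE1, -0.13 to 0.12 for CDC25A and -0.0936 to 0.41 for WEE1. Each of these crosses 0. The 10 genes had at least 243 counts in every library, and the mock has no replicate.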
